A study of Mus musculus with 6 samples.

Results

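The heat shock proteins and the DnaJ proteins that assist them were examined in mouse oocytes at early metaphase II, with or without depletion of *Btg4* by siRNA. The genes were taken by symbol from the deposited expression table: every symbol beginning with Hsp followed by a letter from a to e, h or a digit, and every symbol beginning with Dnaja, Dnajb or Dnajc, with *Hspg2*, which encodes a matrix proteoglycan, left out. The rule found 65 of the 15707 genes listed, of which 24 were Hsp and 41 were Dnaj genes.

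Oocytes carry most of the proteins and transcripts that the early embryo will use, and transcription stops before they mature, so that mRNA levels afterwards depend on storage and decay. BTG4 is an adaptor that brings the CCR4-NOT deadenylase to mRNAs that are to be removed during maturation. Chaperones bind proteins that are not yet, or no longer, folded. Hsp70 proteins do so in cycles of ATP use: a DnaJ protein, through its J domain, delivers the client and makes Hsp70 hydrolyse ATP, and a nucleotide exchange factor then resets it. Hsp90 acts later on partly folded clients, the chaperonins Hsp60 and Hsp10 enclose them in mitochondria, and the small heat shock proteins hold them without ATP.

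Follicle-enclosed oocytes came from (C57BL x CBA) F1 females aged 10 to 12 days. They were microinjected with control siRNAs or a mix of siRNAs against *Btg4*, and the follicles were cultured for 8 to 10 days. Both groups shared this culture and injection, and each held 3 libraries of 50 pooled oocytes, so that a value stands for a pool and not for single cells. In such pools, fewer cells of a type cannot be told apart from less RNA per cell.

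Levels are the authors' mean FPKM of the 3 libraries of a group (fragments per kilobase of transcript, scaled to the mapped fragments of the library). The cDNA was primed on poly(A) tails, so a level stands for polyadenylated mRNA. A change in the poly(A) tail cannot be told apart here from a change in the amount of mRNA. Values of single libraries were not used here, so no spread between replicates, no error and no test can be given for any difference below, and each difference is a description of these libraries. The log2 ratio compares *Btg4*-depleted with control group means after scaling between groups (TMM) and addition of 1 FPKM. Because of that addition it understates the difference for genes of low level. Levels and ratios are relative to the other transcripts of a library and do not give amounts per oocyte. Printed levels are as deposited, without the scaling. A ratio near 0 can therefore differ in sign from its levels, as for *Hsp90aa1* (883 and 836 FPKM, log2 ratio 0.09). Genes with a mean of the 2 group values of at least 1 FPKM are called measured, and a log2 ratio of at least 1 or of -1 and lower is called 2-fold. Where a gene is given with a pair of levels, control comes first. Across all genes this gave 10012 measured genes, of which 19.5% were at least 2-fold higher and 11.4% at least 2-fold lower in depleted oocytes.

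*Btg4* itself, the targeted gene, stood at 1766 FPKM in control and 39.3 FPKM in depleted oocytes. Library size was not given, and the lists of normalised counts deposited beside the table put it at about 7.82 M fragments. A 2-kilobase transcript at 1 FPKM would then draw about 15.6 fragments from each library. All 12 oocyte markers examined were measured, with a summed level of 16441 FPKM in control and 17260 FPKM in depleted oocytes. Single levels ran from 6.08 to 5445 FPKM in control. The near-equal sums cover differences in both directions. Of the 12 markers, 4 were at least 2-fold higher and 1 lower, against 19.5% and 11.4% of all measured genes. *Zp3* stood at 1398 and 3766 FPKM, and *Oosp1* at 1184 and 464 FPKM. Of 12 granulosa or cumulus markers, 8 were listed, with sums of 30.6 and 33.4 FPKM. *Cyp19a1* was 2-fold lower, at 14.8 and 5.87 FPKM, while *Inhba* and *Hsd3b1* were 2-fold higher, at 4.28 and 9.24 FPKM and at 2.15 and 5.59 FPKM, and *Amh*, *Foxl2*, *Fshr* and *Amhr2* had no value. Of 6 theca, blood or vessel markers, 3 were listed, and their sum of 27.7 FPKM in control and 8.66 FPKM in depleted oocytes was nearly all *Pecam1*, at 26.5 and 8.12 FPKM. The part of these other cells in the results was not tested.

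The chaperone transcripts spanned a wide range of levels. Of the 24 Hsp genes 20 were measured and of the 41 Dnaj genes 34. A mean level of 100 FPKM or more was reached by 6 genes of each family, and 16 Hsp and 26 Dnaj genes reached 5 FPKM. The 11 genes that were not measured (*Hspa1b*, *Hspb3*, *Hspb6*, *Hspb8*, *Dnajb3*, *Dnajb13*, *Dnajc6*, *Dnajc12*, *Dnajc25*, *Dnajc27* and *Dnajc28*) had no group mean above 0.863 FPKM. Sequence shared with other annotated genes limits some levels: 40 of the 65 members had no 100-base stretch in common with another gene, and 12 had at least 20% in common, among them *Hspb1* (56.3%), *Dnajb6* (34.9%), *Hspd1* (26.9%), *Dnaja1* (24.0%), *Hspe1* (22.4%) and *Dnajc30* (21.6%). In control oocytes *Hsp90aa1*, the inducible cytosolic Hsp90, was the highest member at 883 FPKM, and *Dnajc8*, which encodes a splicing-associated J protein, was the highest Dnaj gene at 301 FPKM.

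**Figure D1:**
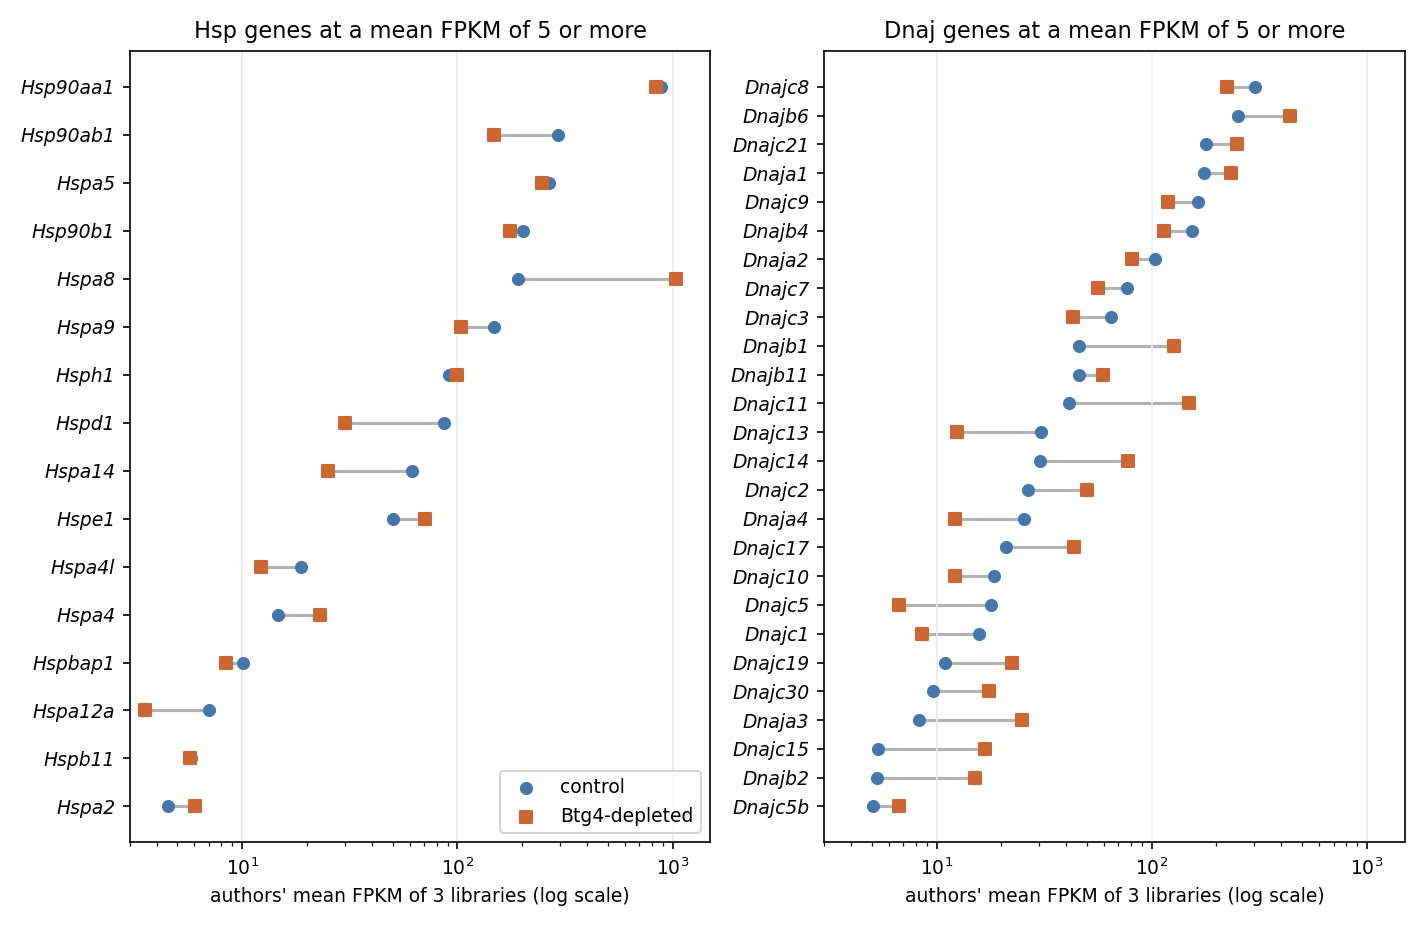
Levels of the 42 chaperone genes with a mean of at least 5 FPKM, as the authors' mean FPKM of 3 libraries on a log axis, with circles for control and squares for *Btg4*-depleted oocytes and a grey line joining them. *Hspa8* moves farthest to the right among Hsp genes, from 192 to 1035 FPKM, while *Hspd1* and *Hspa14* lie to the left of their control values. No error bars are drawn, because only group means were used.

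*Hspa8* had the highest log2 ratio of all measured members. Its annotated transcript closest to the listed length lies at chr9:40801302-40805200 on the plus strand (GRCm38). The gene encodes Hsc70, the constitutive cytosolic Hsp70 that folds new proteins and strips clathrin from vesicles. Its level was 192 FPKM in control and 1035 FPKM in depleted oocytes, a log2 ratio of 2.59, or about 3154 and 17044 fragments per library. Among all genes listed it stood at rank 343 in control and rank 36 in depleted oocytes. It thereby passed *Hsp90aa1*, which was 4.61 times its level in control and 0.807 times its level in depleted oocytes. Of the 100-base stretches of the *Hspa8* transcript, 73.9% also occur in 9 other annotated genes, none of them listed in the table, and how reads from such copies were counted is not known.

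The other Hsp70 genes above 5 FPKM were not 2-fold higher. *Hspa5*, the Hsp70 of the endoplasmic reticulum (BiP), stood at 266 FPKM in control and 248 FPKM in depleted oocytes, a log2 ratio of 0.07. *Hspa9*, the mitochondrial Hsp70 (mortalin), stood at 147 and 104 FPKM, a log2 ratio of -0.34. Both lay inside the 2-fold limits. *Hspa14*, which works at the ribosome, was lower in depleted oocytes, at 61.4 and 25 FPKM with a log2 ratio of -1.10. *Hspa2*, the testis-enriched Hsp70, was near the 5 FPKM limit in both groups, at 4.53 and 6.01 FPKM. Of the 8 Hsp70 genes listed, *Hspa8* made up 28.4% of their summed FPKM in control and 72.8% in depleted oocytes.

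The stress-inducible pair was low in both groups. *Hspa1a* stood at 0.677 FPKM in control and 2.95 FPKM in depleted oocytes, with a log2 ratio of 1.33 on about 15 and 65 fragments per library. *Hspa1b*, its near-identical neighbour, stood at 0.0200 and 0.807 FPKM and was not measured. The 2 genes share much of their sequence, with 56.5% of the 100-base stretches of *Hspa1a* and 49.9% of those of *Hspa1b* found elsewhere, so reads could be divided between them. *Hspa13*, an Hsp70 of the secretory pathway, was low as well, at 2.72 and 0.60 FPKM, and was 2-fold lower with a log2 ratio of -1.13, or -0.96 with the trend on length removed, inside the 2-fold limits. The Hsp70-related *Hspa12a* stood at 6.98 and 3.54 FPKM, a log2 ratio of -0.68.

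Transcripts of the 3 Hsp90 genes were abundant in both groups and none differed 2-fold. *Hsp90aa1* stood at 883 and 836 FPKM, a log2 ratio of 0.09. *Hsp90ab1*, the constitutive cytosolic form, stood at 293 and 148 FPKM, a log2 ratio of -0.82. The level of *Hsp90aa1* was thus 3.01 times that of *Hsp90ab1* in control and 5.65 times in depleted oocytes. *Hsp90b1*, the form of the endoplasmic reticulum (GRP94), stood at 202 and 176 FPKM, a log2 ratio of -0.04. Among its 100-base stretches *Hsp90aa1* shared 53.2% with other annotated genes.

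The Hsp110 proteins are relatives of Hsp70 that act as its nucleotide exchange factors. None of the 3 differed 2-fold before the trend on length was removed. *Hsph1* stood at 91.2 and 100.0 FPKM with a log2 ratio of 0.29. *Hspa4* was the member with the highest ratio, at 14.6 and 23.0 FPKM with a log2 ratio of 0.78. With the trend on length removed its log2 ratio was 1.03, past 2-fold. *Hspa4l* stood on the other side of 0, at 18.7 and 12.3 FPKM with a log2 ratio of -0.41. The exchange factor *Hspbp1* was low in both groups, at 2.72 and 2.97 FPKM.

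*Hspd1* and *Hspe1* encode the subunits of the mitochondrial chaperonin, Hsp60 and its lid Hsp10. The genes lie head to head on chromosome 1. The annotated transcripts closest to the listed lengths lie at chr1:55077835-55088024 on the minus strand for *Hspd1* and at chr1:55088132-55091307 on the plus strand for *Hspe1* (GRCm38). The log2 ratios of *Hspd1* and *Hspe1* stood on opposite sides of 0. *Hspd1* was at 86.6 FPKM in control and 30.0 FPKM in depleted oocytes, a log2 ratio of -1.34. *Hspe1* was at 50.1 and 70.8 FPKM, a log2 ratio of 0.65. The ratio of *Hspd1* to *Hspe1* was accordingly 1.73 in control and 0.423 in depleted oocytes. Part of the *Hspe1* transcript (22.4% of its 100-base stretches) also occurs in 2 other annotated genes, *Hspd1* among them. The *Hspd1* transcript used shares 26.9% with 2 other genes, neither of them listed in the table, and none with *Hspe1*. How reads from these shared stretches were counted is not known. *Hspe1* is a short transcript of 788 bases and *Hspd1* one of 2347 bases. With the trend on length removed, as described below, the log2 ratio of *Hspe1* was 0.03 and that of *Hspd1* -1.49.

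**Figure D2:**
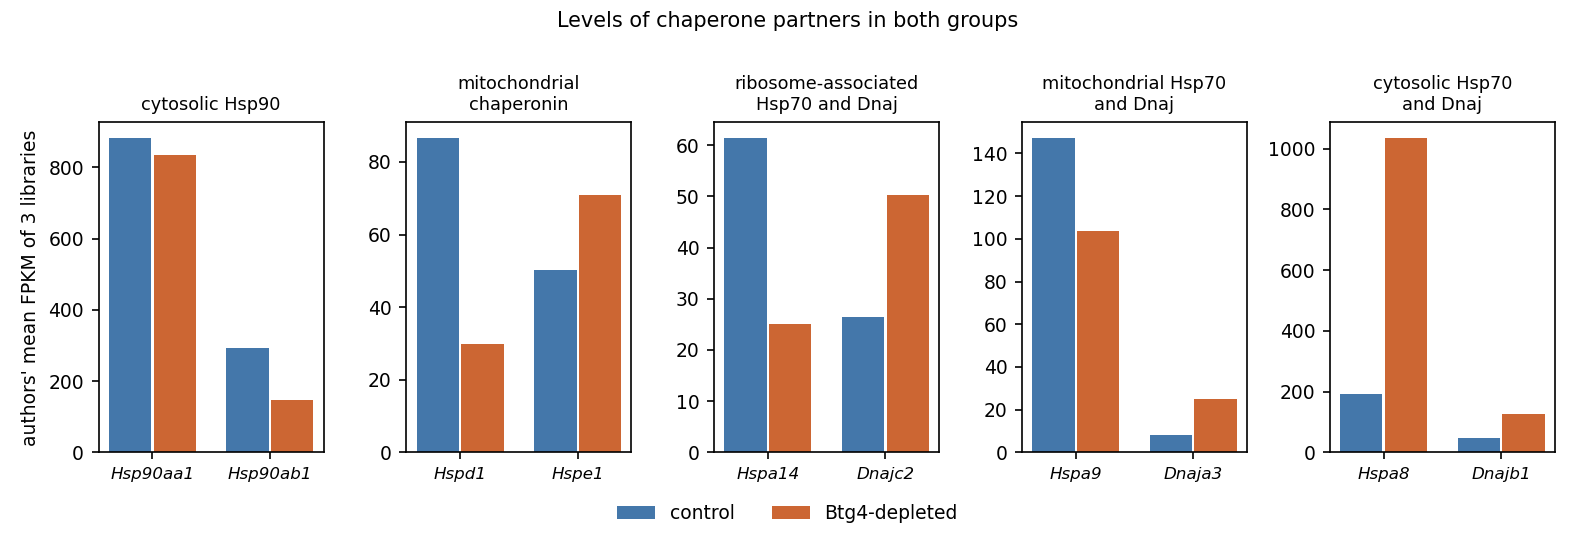
Levels of partner chaperones, as the authors' mean FPKM of 3 libraries on a linear axis starting at 0, with blue bars for control and orange bars for *Btg4*-depleted oocytes. The partners were picked after their values were seen. The bars of *Hspd1* and *Hspe1* differ in opposite directions, as do those of *Hspa14* and *Dnajc2* and of *Hspa9* and *Dnaja3*. No error bars are drawn, because only group means were used.

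Because *Hspd1* and *Hspe1* share their start region, the sequence between them was read for the heat shock element, the site that heat shock factor binds. The pattern searched was GAANNTTCNNGAA or its reverse complement TTCNNGAANNTTC, on both strands, from 250 bases before to 50 bases after the RefSeq start (GRCm38.p6). The 2 patterns can overlap, as they do here. Among members the element was found at *Hspd1*, *Hspe1*, *Hsph1* and *Dnajb6*, and the sequences are given to show that the chaperonin pair has 1 stretch read on both strands (minus strand for *Hspd1* and *Hsph1*, plus strand for *Hspe1* and *Dnajb6*), with the matched element in capitals.

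Hspd1, chr1:55088055-55088084: gcggggccTTCCGGAAGGTTCtagaacgga

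Hspe1, chr1:55088056-55088085: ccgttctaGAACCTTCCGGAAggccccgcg

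Hsph1, chr5:149636279-149636308: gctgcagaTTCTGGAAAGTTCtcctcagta

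Dnajb6, chr5:29735844-29735873: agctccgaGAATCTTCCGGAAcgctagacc

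The element was found in 3 of the 19 Hsp genes matched to the promoter table (15.8%) and in 1 of 34 Dnaj genes (2.94%). The Hsp count includes *Hspd1* and *Hspe1* separately, though they share 1 stretch. The match of *Hsph1* lies after its RefSeq start. Among the 8105 measured genes matched, 48 had the element (0.592%), as did 0.662% of all 27025 promoters of that length. Of the 65 members, 53 were matched. The members with the element lay on both sides of 0, with log2 ratios of -1.34 for *Hspd1*, 0.65 for *Hspe1*, 0.29 for *Hsph1* and 0.97 for *Dnajb6*. A match says only that these letters are present.

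Among the small heat shock proteins only *Hspb1*, the Hsp27 that binds unfolded proteins, was measured, at 0.537 and 1.53 FPKM. *Hspb6* stood at 0.803 and 0.807 FPKM. *Hspb3* and *Hspb8* were at the lowest listed value of 0.01 FPKM in depleted oocytes and at 0.180 and 0.103 FPKM in control. *Hspb11*, which is named for its sequence but is a subunit of the intraflagellar transport complex, was at 5.80 and 5.75 FPKM. *Hspbap1*, a protein bound to Hspb1, was at 10.1 and 8.41 FPKM.

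The DnaJ genes fall into types A and B, which resemble the bacterial protein, and type C, which has only the J domain in common. Of the 4 type A genes, *Dnaja1* and *Dnaja2*, the cytosolic partners of Hsc70, stood at 175 and 233 FPKM and at 104 and 81.4 FPKM, with log2 ratios of 0.57 and -0.18. *Dnaja4* stood at 25.6 and 12.2 FPKM, a log2 ratio of -0.86, or -1.02 without scaling. Of its 100-base stretches, 51.0% also occur in *Wdr61*. *Dnaja3*, which serves the mitochondrial Hsp70, was 2-fold higher at 8.25 and 25.1 FPKM, a log2 ratio of 1.65.

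Among the type B genes, *Dnajb1*, the Hsp40 induced by heat shock, was 45.8 FPKM in control and 127 FPKM in depleted oocytes, a log2 ratio of 1.61. The level of *Hspa8* was 4.18 times that of *Dnajb1* in control and 8.14 times in depleted oocytes. *Dnajb6*, which keeps aggregation-prone proteins soluble, was the highest DnaJ transcript in depleted oocytes at 441 FPKM against 252 FPKM in control, a log2 ratio of 0.97, just short of 2-fold. *Dnajb4* stood at 154 and 114 FPKM, a log2 ratio of -0.26, and *Dnajb2*, a ubiquitin-binding form, was 2-fold higher at 5.28 and 15.1 FPKM with a log2 ratio of 1.51.

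Type C genes outside mitochondria and the endoplasmic reticulum differed in both directions. *Dnajc2*, which forms a ribosome-associated pair with *Hspa14*, was 2-fold higher at 26.5 and 50.3 FPKM, a log2 ratio of 1.06, where *Hspa14* was 2-fold lower. Neither call held in every setting: *Dnajc2* was at 0.90 without scaling and 0.81 with the trend on length removed, and *Hspa14* at -0.98 without a filter. *Dnajc7*, which links Hsp70 with Hsp90, stood at 76.8 and 56.1 FPKM, a log2 ratio of -0.28. *Dnajc13*, which acts on endosomes, was 2-fold lower at 30.5 and 12.4 FPKM, a log2 ratio of -1.08, and *Dnajc5*, the cysteine string protein of secretory vesicles, was 2-fold lower at 17.8 and 6.68 FPKM, a log2 ratio of -1.14. Both are long transcripts, and with the trend on length removed both came inside the 2-fold limits, at -0.58 and -0.95. Without a filter *Dnajc13* was at -0.96.

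Low Dnaj genes outside mitochondria also lay on both sides of 0. *Dnajc5g* stood at 0.393 and 4.58 FPKM with a log2 ratio of 2.09 on about 5 and 56 fragments per library. *Dnajc24*, which takes part in making diphthamide, stood at 1.10 and 4.15 FPKM, and was 2-fold higher. *Dnajc5b* differed little, at 5.06 and 6.67 FPKM. *Dnajb9*, *Dnajb14*, *Dnajc16* and *Dnajc18*, all of the endoplasmic reticulum, stayed within the 2-fold limits at group means between 0.843 and 4.95 FPKM. *Dnajb12*, also a membrane protein there, was 2-fold lower at 3.92 and 0.637 FPKM, a log2 ratio of -1.49 and the lowest of all measured members. Its ratio rested on about 55 and 9 fragments per library.

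Transcripts of 3 of the 4 genes for nuclear J proteins stood above 100 FPKM in both groups. *Dnajc8* stood at 301 and 225 FPKM, *Dnajc9*, a histone chaperone, at 163 and 119 FPKM, and *Dnajc21*, which acts in ribosome biogenesis, at 179 and 249 FPKM. Their log2 ratios were -0.26, -0.29 and 0.64. *Dnajc17* was the only 2-fold member of these 4 genes, at 20.9 and 43.7 FPKM with a log2 ratio of 1.18, or 0.62 with the trend on length removed.

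Of the 10 measured J protein genes of the endoplasmic reticulum, 1 was 2-fold higher and 1 lower, near the 19.5% and 11.4% of all genes. *Dnajb11*, a partner of BiP, stood at 45.8 and 59.4 FPKM with a log2 ratio of 0.53. *Dnajc3*, which limits the unfolded protein response through PERK, stood at 64.7 and 43.2 FPKM with a log2 ratio of -0.41. *Dnajc10*, a disulfide reductase, stood at 18.4 and 12.1 FPKM with a log2 ratio of -0.41, and *Dnajc1* at 15.8 and 8.58 FPKM with a log2 ratio of -0.66. *Dnajc14* stood apart, at 30.3 and 77.4 FPKM with a log2 ratio of 1.48, but 24.6% of its 100-base stretches also occur in *Ormdl2*. Across these genes the median log2 ratio was -0.02.

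The mitochondrial Dnaj genes had the highest median of the compartments. Of 6 measured, 4 were at least 2-fold higher and none lower, against 19.5% and 11.4% of all measured genes, and the median log2 ratio was 1.39, with summed levels of 78.3 FPKM in control and 232.9 FPKM in depleted oocytes. *Dnajc11*, which organises the inner membrane, was at 41.3 and 148 FPKM, a log2 ratio of 1.98. It made up the largest part of both sums. *Dnajc15* and *Dnajc19*, J proteins of the protein import motor, were at 5.34 and 16.8 FPKM and at 10.9 and 22.5 FPKM, with log2 ratios of 1.64 and 1.13, the latter 0.98 without scaling and 0.50 with the trend on length removed. *Dnajc30* was at 9.64 and 17.6 FPKM, a log2 ratio of 0.96, and *Dnajc4* at 2.80 and 2.67 FPKM, a log2 ratio of 0.07.

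The 3 mitochondrial Hsp genes did not share this pattern, with a median log2 ratio of -0.34. The mitochondrial Dnaj genes were short, with a median length of 1000 bases. With the trend on length removed, 3 were 2-fold higher, against 14.8% of all genes in that setting, and their median was 0.75, with a range of -0.54 to 1.95.

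**Figure D3:**
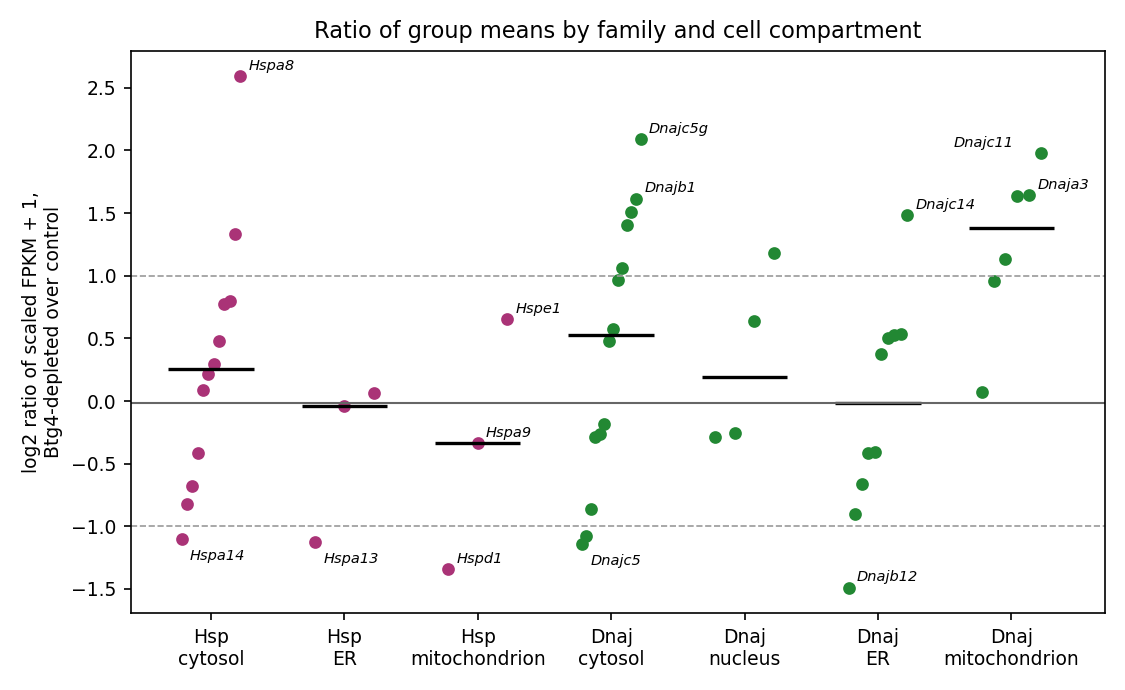
Log2 ratio of *Btg4*-depleted over control group means (scaled FPKM plus 1) for the measured Hsp and Dnaj genes, grouped by family and the compartment in which the protein works, with a black bar at the median of each group and dashed lines at the 2-fold limits. Mitochondrial Dnaj genes have a median of 1.39, mitochondrial Hsp genes of -0.34. No error bars are drawn, because only group means were used.

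Compared as families, the Dnaj genes had the higher median ratio, and no test of that difference could be made. Of the 20 measured Hsp genes 2 were at least 2-fold higher (10.0%) and 3 at least 2-fold lower (15%), against 19.5% and 11.4% of all measured genes. With the trend on length removed, 3 Hsp genes were higher and 2 lower, against 14.8% and 12.2% of all genes, so the Hsp counts are read as near those of all genes. Of the 34 Dnaj genes 11 were at least 2-fold higher (32.4%) and 3 lower (8.82%). The median log2 ratio was 0.08 for Hsp, which became -0.09 without scaling and -0.07 with the trend on length removed, against -0.02 for all genes. For Dnaj it was 0.52, which became 0.38 without scaling and 0.25 with the trend on length removed. The difference between the medians was 0.44. The spread within each family was wide, from -1.34 to 2.59 for Hsp and from -1.49 to 2.09 for Dnaj. Both Dnaj ends, *Dnajb12* and *Dnajc5g*, were low genes that passed the filter only through the group where they were higher. The same held for *Hspa1a*, 1 of the 2 higher Hsp genes, and for *Hspa13*, 1 of the 3 lower. Among genes of at least 5 FPKM the Dnaj range was -1.14 to 1.98, and that of Hsp was unchanged. At that level 9 of 26 Dnaj genes were 2-fold higher and 2 lower, and 1 of 16 Hsp genes was higher and 2 lower. The shares of all genes at that level were 21.2% and 11.5%.

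In summed FPKM as deposited, both families were 1.21-fold higher in depleted oocytes, Hsp from 2341 to 2842 FPKM and Dnaj from 1853 to 2249 FPKM. The sum over all listed genes was higher as well, at 408816 FPKM in control and 427823 FPKM in depleted oocytes. Of these totals Hsp made up 0.573% and 0.664%, and Dnaj 0.453% and 0.526%. The Hsp sum rested on *Hspa8*: without it the sum was 2149 FPKM in control and 1806 FPKM in depleted oocytes. Without *Dnajb6* the Dnaj sum was 1601 and 1808 FPKM.

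The log2 ratio was lower for longer transcripts across all genes (Spearman's rho -0.33, computed over genes rather than replicates), and the Dnaj genes, with a median length of 2045 bases, were shorter than the Hsp genes, with 2654 bases. Genes were split by length into 3 equal groups. In the shortest group, under 1982 bases, 31.7% of all genes and 6 of 15 Dnaj genes were at least 2-fold higher. In the middle group the values were 19.1% and 4 of 10, and in the longest, over 3521 bases, 7.68% and 1 of 9. With the trend on length removed, 7 of the 34 Dnaj genes were at least 2-fold higher, against 14.8% of all genes, and the difference between the family medians was 0.32. The part of length in the difference between the families was not tested.

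**Figure D4:**
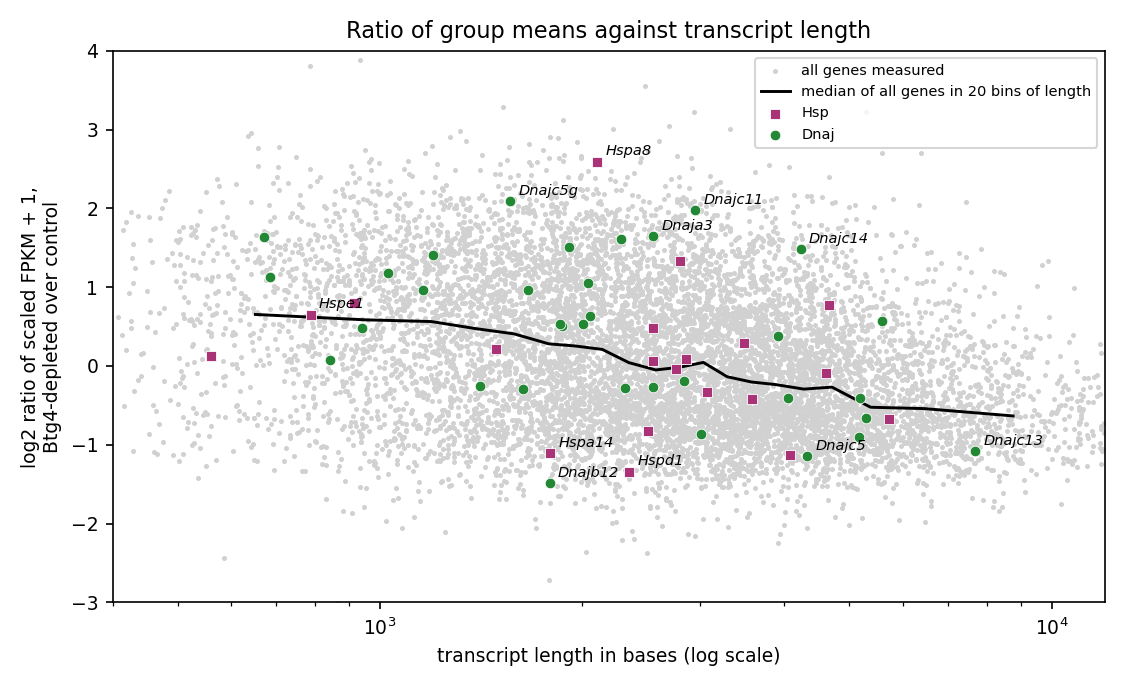
Log2 ratio of *Btg4*-depleted over control group means (scaled FPKM plus 1) against transcript length on a log axis, with all measured genes in grey, Hsp genes as squares, Dnaj genes as circles and a black line through the medians of 20 bins of length. The line falls with length, and *Hspa8* and *Dnajc11* lie well above it while *Hspd1* and *Hspa14* lie below it. The axes leave out 89 genes, none of them a member.

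Cytoplasmic polyadenylation elements in the 3′ UTR bind CPEB and guide tail lengthening in maturing oocytes. The patterns TTTTAT and TTTTAAT were searched on the sense strand in the last 150 bases of the 3′ UTR of the transcript closest in length, in GRCm38. They occurred in 12 of 40 members with a UTR long enough (30.0%) and in 27.3% of 7262 measured genes. In this window *Hsp90ab1* had the element and *Hsp90aa1*, whose 3′ UTR has 512 bases in all, had no match. The examples show the element of *Hsp90ab1* and those near the 3′ end of *Hspa5* and *Dnajc8* (plus strand) and of *Dnajb4* (minus strand, as for *Hsp90ab1*), with the element in capitals and each site in the last exon.

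Hsp90ab1, chr17:45567813-45567842: tttttttgtttgTTTTATtttgttctaaaa

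Hspa5, chr2:34776487-34776516: attatatccatcTTTTATtttagataacta

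Dnajc8, chr4:132553714-132553742: cgtataataaatTTTTATacccaagcctt

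Dnajb4, chr3:152183955-152183981: gtcctatagtctTTTTAATagaatgtg

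Over all genes the median log2 ratio was -0.46 with the element and 0.04 without it. The genes with and without it were not matched for length, and the part of length in this difference was not tested. Among Dnaj genes the medians were -0.26 for 6 genes with it and 0.57 for 19 without it, and among Hsp genes 0.27 and -0.04 for 6 and 9 genes. The 3′ UTR of the *Hspa8* transcript used has 83 bases, too short for the window. A match says only that these letters are present, and its place relative to the polyadenylation signal was not scored. In the *Dnajc8* stretch shown, the match lies after such a signal.

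Partners of the chaperones that are not themselves members were counted from lists set by function. Of the 4 measured genes for heat shock factors or for proteins named as binding them, none was 2-fold. All 4 lay below 0, with a median of -0.84. *Hsf1*, the main heat shock factor, stood at 56.2 and 25.4 FPKM, a log2 ratio of -0.96, just inside the 2-fold limit. The alternative settings were not run for the genes of these lists. Counts are to be read against the 19.5% of all measured genes that were 2-fold higher and the 11.4% that were lower. Of 8 measured Hsp70 exchange factors outside both families 2 were 2-fold higher and none lower: *Grpel1*, which serves the mitochondrial Hsp70, stood at 16.7 and 31.9 FPKM, and *Bag4* at 16.3 and 30.9 FPKM. Of 22 measured Hsp90 co-chaperones 8 were 2-fold higher and 3 lower, with a median of 0.03. *Nudc* stood at 251 and 910 FPKM, *Stip1*, the Hop that joins Hsp70 with Hsp90, at 36.5 and 89.7 FPKM, and *Ppp5c* at 13 and 3.59 FPKM.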

How the data were processed

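The 6 libraries, 3 per group, were made from poly(A)-primed SMARTer cDNA from about 10 ng of total RNA, an insert of 200 bp and paired reads of 100 bases. BWA and mm9 are named in the submitters' processing notes. Counting program and annotation: not given in the sources used here. The deposited table holds the authors' mean FPKM per group and the gene length. Every group mean was a multiple of 1/300 within 0.001 of a step, which a mean of 3 library values rounded to 2 decimals gives. The authors' columns of fold changes, log2 ratios, p-values and probabilities were not used. From the authors' gene lists only the deposited mean normalized count (a signal) was read, to estimate library size (320 genes, 5th to 95th percentile 6.92 to 8.12 M fragments).

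Ratios used TMM scaling (30% of ratios and 5% of levels trimmed; shift 0.16 on the log2 scale), a pseudocount of 1 FPKM and a filter of 1 FPKM. Without scaling the median log2 ratio of measured genes was -0.15. Length was removed by loess (span 30%). With group means only, the model planned for single libraries was not fitted. Genes named had a mean of at least 5 FPKM, or belong to a family or pair described. Members and lists were chosen with earlier results of these data known. Compartments and roles are textbook knowledge. Promoters are from RefSeq (GRCm38.p6) and transcripts from the GENCODE annotation on GRCm38, a newer build than mm9. Alternatives were no scaling, median of ratios, pseudocounts of 0.1 and 0.5, no filter, a filter of 5 FPKM and loess on length. Scripts were tested on simulated data. Computations ran in Python 3.11.15 with pandas 2.3.3, numpy 2.4.6, statsmodels 0.14.6, scipy 1.17.1 and matplotlib 3.10.9.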

Additional observations from a re-analysis of the deposited data

How the results depend on the processing

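Of 42 named members, 8 were past 2-fold on the same side in every setting: *Hspa8*, *Dnajc11*, *Dnaja3*, *Dnajb1*, *Dnajc15*, *Dnajb2* and *Dnajc14* higher, and *Hspd1* lower. In at least 1 setting 18 were past 2-fold. Among these, *Hspa4*, *Dnaja4*, *Dnajb6* and *Dnajc30* lay inside the limits with the settings used above. The same counts were not made over all genes. With the length trend removed, the Dnaj genes at least 2-fold higher numbered 7 in place of 11 and those lower 1 in place of 3. The shares of all genes in that setting were 14.8% and 12.2%. Without scaling, 9 of 34 Dnaj genes were higher and 5 lower, against 16.2% and 16.7% of all genes. At the filter of 5 FPKM, 1 of 16 Hsp genes was higher, against 21.7% of all genes, since *Hspa1a* is below it. Length removal moved *Dnajc15* from 1.64 to 1.00, *Dnajc19* from 1.13 to 0.50, *Dnajc5b* from 0.48 to -0.11, *Hspb11* from 0.13 to -0.53 and *Hspe1* from 0.65 to 0.03. Of all 2-fold genes, 63.1% were higher with TMM, 49.1% without scaling and 54.9% with length removed. Leaving out single replicates could not be done with group means. No paired analysis was possible because only group means were used. Depth limits members below 1 FPKM, which rest on few fragments.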

Other observations

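The cytosolic folding machines CCT and prefoldin had median log2 ratios of 1.19 and 0.87, against -0.02 for all measured genes, of which 19.5% were at least 2-fold higher and 11.4% lower. Of the 8 subunits of the CCT chaperonin, which folds actin and tubulin, 4 were at least 2-fold higher and none lower, with sums of 390 FPKM in control and 1058 FPKM in depleted oocytes. *Cct5* stood at 95.3 and 480 FPKM, while *Cct6a* stood at 5.84 and 2.40 FPKM. Of the 6 prefoldin subunits, which hand actin and tubulin to CCT, 3 were 2-fold higher and none lower. Prefoldin transcripts are short, with a median of 802 bases, and among all genes of the shortest group 31.7% were 2-fold higher, with a median of 0.48. *Pfdn6* stood at 24.8 and 115 FPKM.

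Of 11 measured folding enzymes and lectins of the endoplasmic reticulum, 3 were 2-fold higher and 1 lower, near the shares of all genes, with a median of -0.35. *Manf* stood at 15.5 and 56.0 FPKM and *Pdia4*, a disulfide isomerase, at 18.6 and 70.1 FPKM, while *Sdf2l1* stood at 31.9 and 10.8 FPKM. Of 3 measured J-domain genes outside the families none was 2-fold, and *Hscb*, which serves iron-sulfur cluster assembly, stood at 42.9 and 54.0 FPKM.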
